A study of Homo sapiens with 15 samples.

Results

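Transcript levels of 10 transcription factors of the lateral plate and heart-forming mesoderm were followed through 15 RNA-seq libraries. The genes were HAND1, HAND2, GATA4, GATA5, GATA6, TBX20, TBX3, FOXF1, NKX2-5 and MEIS2, picked by symbol from the 60675 genes of the count table with earlier results of these data known, so the choice itself carries no weight. Of the 10, 7 passed the filter on low counts and could be tested. FOXF1, GATA4 and TBX20 did not pass.

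The cells were H9, an established line of human embryonic stem cells, grown in serum medium that lets them differentiate on their own, with vitamin D3, β-glycerophosphate and ascorbic acid added from day 5 to favour bone, and lysed on day 7. Particles were present from day 0. The 5 groups of 3 libraries were fine particulate matter at 0.00062 µg/mL (FPM_IC25) and at 1.4 µg/mL (FPM_IC50), a NIST standard reference material at 0.003 µg/mL (SRM_IC25) and at 5.9 µg/mL (SRM_IC50), and the vehicle, DMSO at 0.1% (UNT). IC25 and IC50 are inhibitory concentrations based on protein, so that the same inhibitory level stands for a different mass of each particle, and all groups share 1 cell line of wild-type genotype and the same medium.

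The lateral plate is the outer sheet of mesoderm that gives rise to the heart and to parts of the limbs, the body wall and the wall of the gut tube. BMP signals from neighbouring ectoderm and extraembryonic tissue favour it over paraxial mesoderm, and GATA, HAND, TBX and NKX2-5 factors then bind one another's control regions and act together in the early heart. Many of these genes are shared with other tissues: HAND1, GATA2, GATA3, TBX3 and GATA6 are also known from amnion and trophoblast, and GATA6 from primitive endoderm.

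HAND1 and HAND2 are paralogues that are often read as a pair, and GATA6 is known to act beside both in the heart. Their promoters are shown because HAND1 and GATA6 differed between groups and HAND2 did not pass the test in any comparison. RefSeq (GRCh38.p14) gave promoters for 5 of the 10 genes, from 250 bases before to 50 bases after the start site. Capitals mark the core of a GATA site, GATAA or its complement TTATC. The HAND1 window lies at chr5:154478178-154478477 on the minus strand, HAND2 at chr4:173530180-173530479 on the minus strand and GATA6 at chr18:22169339-22169638 on the plus strand, and each is printed 5′ to 3′ along its gene.
HAND1: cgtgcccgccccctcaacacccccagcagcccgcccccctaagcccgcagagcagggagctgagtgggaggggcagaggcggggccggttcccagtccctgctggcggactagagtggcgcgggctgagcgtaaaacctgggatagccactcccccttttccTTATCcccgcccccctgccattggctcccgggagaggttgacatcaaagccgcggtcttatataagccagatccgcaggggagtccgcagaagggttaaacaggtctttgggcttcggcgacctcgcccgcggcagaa
HAND2: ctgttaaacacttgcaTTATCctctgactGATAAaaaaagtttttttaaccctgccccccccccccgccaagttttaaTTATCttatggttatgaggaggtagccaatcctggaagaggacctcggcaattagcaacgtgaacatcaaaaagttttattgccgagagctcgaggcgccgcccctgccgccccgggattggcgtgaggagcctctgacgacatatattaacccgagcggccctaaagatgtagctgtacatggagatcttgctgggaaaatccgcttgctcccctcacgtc
GATA6: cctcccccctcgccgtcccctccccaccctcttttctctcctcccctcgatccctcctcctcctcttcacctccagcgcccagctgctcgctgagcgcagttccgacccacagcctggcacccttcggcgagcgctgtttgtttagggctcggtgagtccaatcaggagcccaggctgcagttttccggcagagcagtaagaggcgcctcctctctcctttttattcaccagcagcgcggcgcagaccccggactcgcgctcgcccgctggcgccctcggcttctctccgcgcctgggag
The HAND1 promoter held 1 match to GATAA, starting 88 bases before the start site, and the HAND2 promoter held 3, of which the nearest lay 172 bases before it. The GATA6 promoter held none, nor did those of MEIS2 and TBX20. Of all 35116 promoters of that length, 22.7% held at least 1 match on either strand. The E-box CANNTG, which HAND proteins bind with their partners, had no match in the HAND1 promoter and 1 each in those of HAND2 and GATA6, against 68.7% of all promoters with at least 1, and in these 3 promoters no match of one motif overlapped the other. A match describes the letters of a window and shows no binding.

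Total counts ran from 9.34 to 58.2 M (M, mega) per library, and 3 counts, taken as the floor, were worth between 0.0504 and 0.308 CPM in a library (counts scaled to libraries of equal size, with TMM factors). The 6 FPM libraries stood apart: genes annotated as antisense took 0.942 to 1.499% of their counts, against 0.274 to 0.319% in the other 9. Differences between FPM and other libraries cannot be told apart from this, while SRM against UNT, and 1 dose against the other of the same particle, lie within 1 kind of library. Nothing in the labels says that replicates were separate cultures, so p-values measure the spread between these libraries, which may be technical. All adjusted p-values are from edgeR's quasi-likelihood test with Benjamini-Hochberg adjustment over 19012 genes, with 0.05 as the threshold.

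At the higher SRM dose, 5 of the 7 tested genes were lower than in UNT and none was higher. HAND1 fell 6.16-fold, TBX3 4.26-fold, GATA6 3.93-fold, GATA5 1.90-fold and MEIS2 1.58-fold, while NKX2-5 and HAND2 did not pass the test. Of all 19012 genes, 9.6% were called lower and 7.95% higher in this comparison. The SRM_IC50 libraries of the 5 genes lay wholly below those of UNT, which 15.6% of all genes did. The median log2 fold change was -0.92 over the 7 tested genes, beside 0.00 over all tested genes. In bulk RNA, fewer cells of a type and less RNA per cell cannot be told apart.

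**Figure D1:**
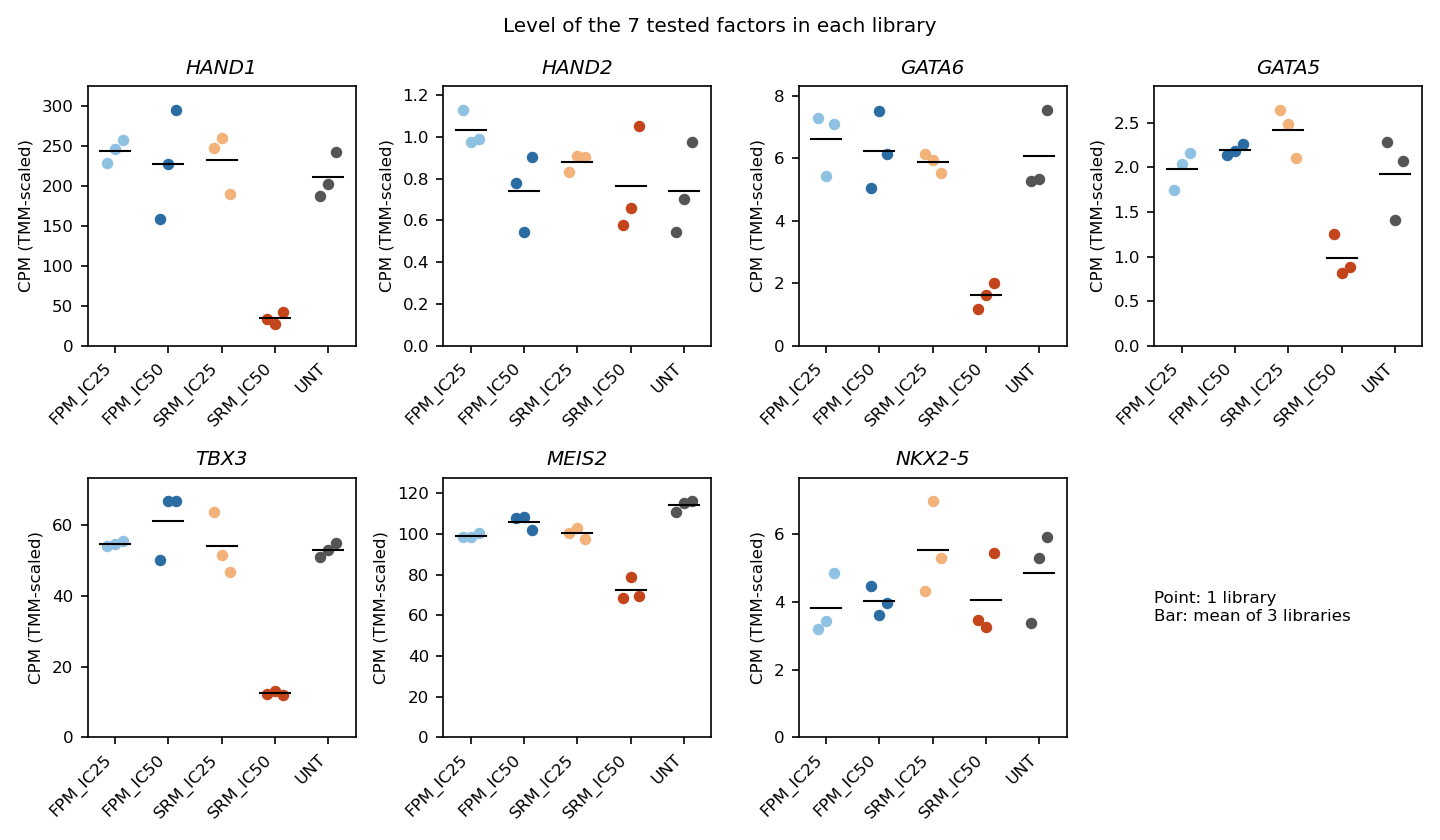
CPM (TMM-scaled, linear axis from 0) of the 7 tested genes in each of the 15 libraries, by group; a point is 1 library and a bar the mean of 3. The 3 SRM_IC50 libraries sit below all 3 UNT libraries for HAND1, GATA6, GATA5, TBX3 and MEIS2, and among them for HAND2 and NKX2-5.

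HAND1, a basic helix-loop-helix factor of the left ventricle, the lateral plate and the trophoblast, had the highest FPKM of the 10 genes in every group. It had 33.9, 27.2 and 42.1 CPM in the 3 SRM_IC50 libraries, against 187, 203 and 243 CPM in the UNT libraries. Every SRM_IC50 library lay far below every UNT library, with 480 to 1000 counts behind each SRM_IC50 value. HAND1 averaged 34.4 ± 7.51 CPM at SRM_IC50, against 211 ± 28.7 CPM in UNT (SD, n = 3 each). On the log2 scale the fold change was -2.62, with an SE of 0.206 and an adjusted p of 2.55e-07. The other exposures overlapped UNT. HAND1 had 229, 246 and 257 CPM at FPM_IC25, 159, 227 and 295 CPM at FPM_IC50, and 248, 260 and 189 CPM at SRM_IC25. The 3 FPM_IC50 libraries spanned the range of all groups but SRM_IC50. By size of fall HAND1 stood at place 156 among the 19012 genes.

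HAND2, its paralogue in the right ventricle, limb bud and branchial arches, was near the lower end of what these libraries could count, with 8 to 59 counts per library. It had 0.576, 0.661 and 1.05 CPM at SRM_IC50, against 0.547, 0.704 and 0.975 CPM in UNT. SRM_IC50 and UNT overlapped, and the log2 fold change of -0.03 had a 95% interval of -0.69 to 0.63 (adjusted p = 0.979). That interval does not reach the fall of HAND1, and it does not show that HAND2 was equal in the groups. Per length, HAND1 was at 19.4 ± 3.64 FPKM at SRM_IC50 and 118 ± 13.1 FPKM in UNT, while HAND2 was at 0.207 ± 0.0611 FPKM at SRM_IC50 and 0.199 ± 0.0532 FPKM in UNT (SD, n = 3 each). HAND1 thus held 98.9% of the FPKM of the pair at SRM_IC50 and 99.8% in UNT.

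GATA6, a zinc-finger factor of cardiac mesoderm, endoderm and extraembryonic tissue, had 1.19, 1.63 and 2.02 CPM at SRM_IC50, against 5.27, 5.34 and 7.55 CPM in UNT. The groups were well apart, on 23 to 35 counts in the SRM_IC50 libraries. The log2 fold change was -1.97 (SE 0.227, adjusted p = 1.18e-05). By limma-trend on log2(FPKM + 1), a scale that understates changes of genes near 1 FPKM, it was -0.82, and over all alternatives the adjusted p was at most 0.00166. GATA6 had 5.42 to 7.30 CPM at FPM_IC25, 5.06 to 7.52 CPM at FPM_IC50 and 5.54 to 6.12 CPM at SRM_IC25, all overlapping the range in UNT.

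GATA5, its relative in endocardium and endoderm, had 1.25, 0.813 and 0.878 CPM at SRM_IC50, against 2.29, 1.41 and 2.07 CPM in UNT. The highest SRM_IC50 library came close to the lowest UNT library without reaching it. The log2 fold change was -0.92 (SE 0.236, adjusted p = 0.0116), on 10 to 37 counts in each SRM_IC50 library. This call was lost without UNT replicate 1 (adjusted p = 0.0606), without SRM_IC50 replicate 2 (adjusted p = 0.0677) and when only the groups compared were fitted (adjusted p = 0.0727), with the same direction in each.

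TBX3, a T-box repressor known from the cardiac conduction system, the limb and the amnion, had 12.3, 12.96 and 12.03 CPM at SRM_IC50, against 51.1, 53.0 and 55.0 CPM in UNT. The spread within each group was small beside the gap between them. TBX3 averaged 12.4 ± 0.482 CPM at SRM_IC50, against 53.0 ± 1.96 CPM in UNT (SD, n = 3 each). Its log2 fold change was -2.09, with an SE of 0.126 and an adjusted p of 1.95e-08.

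MEIS2, a TALE homeodomain cofactor that binds DNA with PBX and HOX proteins and is needed for cardiac neural crest and outflow tract in mice, changed less. It had 68.5, 78.8 and 69.6 CPM at SRM_IC50, against 111, 115 and 116 CPM in UNT. The groups did not overlap, and the log2 fold change was -0.66 (SE 0.072, adjusted p = 6.89e-06).

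NKX2-5, the homeodomain factor that marks committed heart progenitors, had 3.45, 3.25 and 5.44 CPM at SRM_IC50, against 3.38, 5.28 and 5.91 CPM in UNT. The groups overlapped, and each held 1 library apart from the other 2. The log2 fold change was -0.30, with a 95% interval of -0.84 to 0.25 (adjusted p = 0.512).

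**Figure D2:**
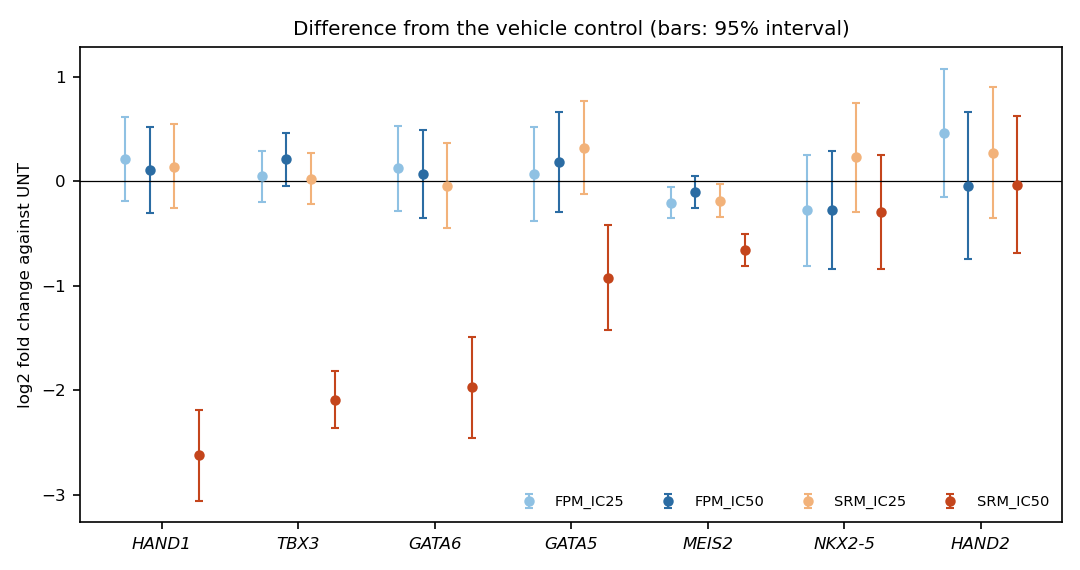
Fitted log2 fold change against UNT for the 7 tested genes at FPM_IC25, FPM_IC50, SRM_IC25 and SRM_IC50, with bars for the 95% interval. SRM_IC50 lies between -2.62 for HAND1 and -0.03 for HAND2, and the other 3 exposures between -0.28 and 0.46.

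FOXF1, TBX20 and GATA4 were barely counted in any group, while the other 7 genes were measurable. FOXF1, the forkhead factor of the splanchnic layer, had 0 to 8 counts per library and 48 over all 15. GATA4, which with NKX2-5 and TBX5 drives cardiac genes, had 0 to 14 counts per library and 35 in all, and was at 0 in 4 libraries. TBX20, a T-box factor of heart chambers and valves, had 0 to 15 counts per library and 57 in all.

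**Figure D3:**
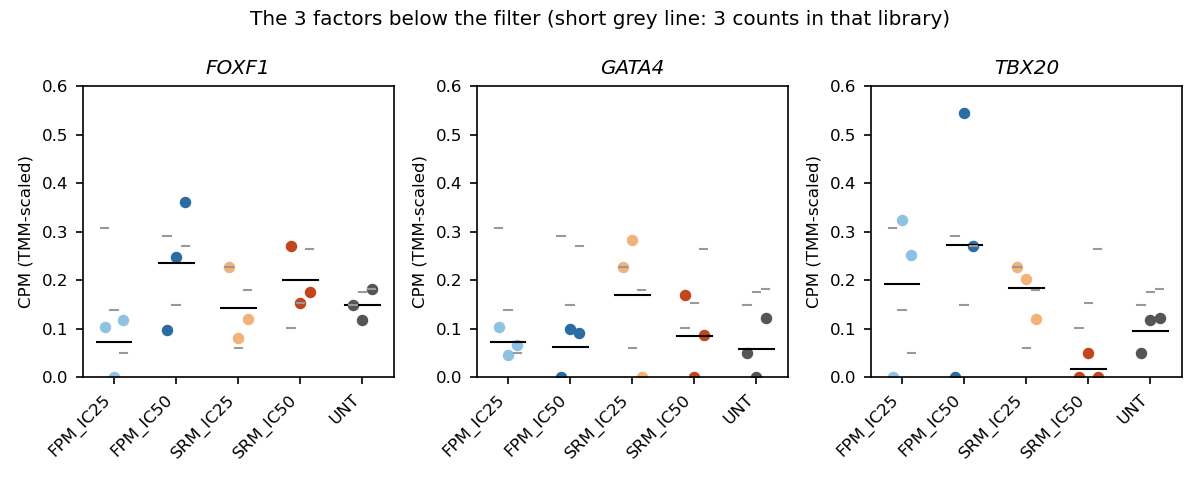
CPM (TMM-scaled) of FOXF1, GATA4 and TBX20 in each library by group, with a bar for the mean of 3 and a short grey line for what 3 counts are worth in that library. Most points lie at or below that line, and TBX20 at SRM_IC50 has 1 library at 0.0508 CPM and the other two at 0.

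TBX20 was at 0, 1 and 0 counts at SRM_IC50, against 1, 2 and 2 counts in UNT, both at or under the floor, so no fold is given between them. It had 3, 10 and 2 counts at SRM_IC25 and 0, 11 and 3 counts at FPM_IC50. With no filter on low counts it was called lower at SRM_IC50 than at SRM_IC25 (adjusted p = 0.0481) and than at FPM_IC50 (adjusted p = 0.00352), while DESeq2 gave no adjusted p for the comparison with SRM_IC25 and 0.0313 for that with FPM_IC50. FOXF1 was at 8, 3 and 2 counts at SRM_IC50 and 3, 2 and 3 counts in UNT, and GATA4 at 5, 0 and 1 counts at SRM_IC50 and 1, 0 and 2 counts in UNT, with no call for either gene in any comparison under these alternatives.

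No tested gene passed the threshold at the lower SRM dose or at either FPM dose. At SRM_IC25 against UNT, where 4.38% of all genes were called, MEIS2 had the smallest adjusted p, 0.135, and it alone was under 0.05 before adjustment. At FPM_IC25 against UNT, where 14.2% were called, MEIS2 was again the only gene under 0.05 before adjustment (adjusted p = 0.0742), and DESeq2 called it (adjusted p = 0.0389). At FPM_IC50 against UNT, where 13.6% were called, no tested gene was under 0.05 even before adjustment, and DESeq2 called none. Limma-trend on log2(FPKM + 1) called none of the 7 in these 3 comparisons. The 95% intervals of HAND1 were -0.26 to 0.55 at SRM_IC25, -0.30 to 0.52 at FPM_IC50 and -0.19 to 0.62 at FPM_IC25 on the log2 scale.

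MEIS2 was the 1 gene of the 7 whose libraries lay wholly below UNT in each of these 3 groups. It had 98.5, 98.3 and 101 CPM at FPM_IC25, 108, 108 and 102 CPM at FPM_IC50, and 101, 103 and 97.4 CPM at SRM_IC25, against 111, 115 and 116 CPM in UNT. The highest of these exposed libraries lay 2.56 CPM below the lowest UNT library. Of all tested genes, 13.4% at FPM_IC25, 10.3% at FPM_IC50 and 14.3% at SRM_IC25 lay wholly below UNT. These shares are for each group alone, and the 3 comparisons use the same UNT libraries. The share of all genes below UNT in the 3 groups at once was not computed.

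Between the SRM doses, the same 5 genes were lower at SRM_IC50 than at SRM_IC25, with 13.2% of all genes called lower. The log2 fold changes were -2.77 for HAND1, -2.12 for TBX3, -1.93 for GATA6, -1.25 for GATA5 and -0.47 for MEIS2, with adjusted p-values from 1.21e-08 to 0.00069. NKX2-5 had 3.45, 3.25 and 5.44 CPM at SRM_IC50, against 4.31, 6.97 and 5.30 CPM at SRM_IC25, and did not pass (log2 fold change -0.53, adjusted p = 0.136). Without SRM_IC50 replicate 3, its highest library of that group, the adjusted p was 0.0354. HAND2 had an overlap throughout (log2 fold change -0.31, adjusted p = 0.484).

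Between the FPM doses no tested gene was called, none was under 0.05 before adjustment, and DESeq2 and limma-trend called none; of all genes, 0.0105% were called. With the replicate number as a block across all 15 libraries, 34 genes were called, and still none of the 7. Same-numbered libraries of the 2 FPM groups were correlated in their deviations. Such a pattern held in only 1 of 10 pairs of groups, so the block is not borne out for the whole fit. The log2 fold changes ran from -0.50 for HAND2 to 0.16 for TBX3. The dose difference of SRM minus that of FPM was tested as an interaction, which called the same 5 genes lower, beside 8.01% of all genes. It was -2.66 for HAND1, -2.28 for TBX3, -1.88 for GATA6, -1.35 for GATA5 and -0.57 for MEIS2 on the log2 scale, with adjusted p-values from 4.8e-07 to 0.00874. HAND2 (0.19, adjusted p = 0.865) and NKX2-5 (-0.53, adjusted p = 0.386) did not pass.

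At the IC50 level, where the doses were 5.9 µg/mL of SRM and 1.4 µg/mL of FPM, those 5 genes were also lower at SRM_IC50 than at FPM_IC50, by 1.47-fold (MEIS2) to 6.64-fold (HAND1), beside 23.2% of all genes called lower. At the IC25 level no tested gene was called between SRM_IC25 and FPM_IC25 (smallest adjusted p = 0.263), none was under 0.05 before adjustment, and DESeq2 and limma-trend called none, while 10.5% of all genes were called. A single test over the 5 groups called the 5 genes, beside 40.8% of all genes. Comparisons that share a group, such as SRM_IC50, share its libraries and are not independent.

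Per length, the order of the 10 genes was set by HAND1 in all groups. In UNT, HAND1 at 118 FPKM was followed by MEIS2 at 10.3, TBX3 at 8.65, NKX2-5 at 2.24, GATA6 at 1.49, GATA5 at 0.721 and HAND2 at 0.199 FPKM, with the 3 untested genes at or under 0.0495 FPKM. Only NKX2-5 and GATA6, and TBX20 and FOXF1, were neighbours whose libraries overlapped there. At SRM_IC50, HAND1 was at 19.4, MEIS2 at 6.61, TBX3 at 2.06, NKX2-5 at 1.89, GATA6 at 0.400, GATA5 at 0.374 and HAND2 at 0.207 FPKM. TBX3 and NKX2-5, and GATA6 and GATA5, were the tested neighbours that overlapped at that dose.

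The closest relatives of the 10 genes were compared in the same way, since each family divides its roles among tissues. GATA3, known from trophoblast, and GATA2, known from trophoblast and blood, outweighed GATA6 in these cells. GATA3 was at 8.21 ± 1.36 FPKM at SRM_IC50 and 34.7 ± 4.81 FPKM in UNT, and GATA2 at 1.82 ± 0.242 FPKM at SRM_IC50 and 10.8 ± 1.09 FPKM in UNT (SD, n = 3 each). Both fell, by log2 fold changes of -2.11 (GATA3, adjusted p = 1.48e-07) and -2.61 (GATA2, adjusted p = 1.95e-08). GATA6 took 3.70% of the FPKM of the 6 GATA genes at SRM_IC50 and 3.10% in UNT.

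In the T-box family, TBX3 took 48.4% ± 3.98 of the summed FPKM of 12 genes at SRM_IC50 and 74.2% ± 0.732 in UNT (SD, n = 3 each). The MEIS genes did not move together. MEIS1, which acts in heart and blood progenitors, was at 0.840 ± 0.188 FPKM at SRM_IC50 and 3.81 ± 0.315 FPKM in UNT, a log2 fold change of -2.18 (adjusted p = 1.49e-08). MEIS3 was at 9.01 ± 0.556 FPKM at SRM_IC50 and 6.21 ± 0.462 FPKM in UNT, a log2 fold change of 0.52 (adjusted p = 0.00479). The share of MEIS2 in the FPKM of the 3 genes was 40.1% at SRM_IC50 and 50.7% in UNT, and that of MEIS3 was 54.8% at SRM_IC50 and 30.6% in UNT. NKX2-3, an NKX2 factor of gut and spleen mesenchyme, fell by 2.40 on the log2 scale (adjusted p = 0.000353), on 12 counts in all at SRM_IC50 and 58 in UNT. FOXF2, the closest relative of FOXF1, was at 0.152 ± 0.0364 FPKM at SRM_IC50 and 0.336 ± 0.0819 FPKM in UNT. Its log2 fold change was -1.11 (adjusted p = 0.0332). TBX5 (-2.41, adjusted p = 0.00491) and TBX2 (-0.59, adjusted p = 0.0348) were also lower. The level of TBX5 was low in both groups, at 0.0363 ± 0.0201 FPKM at SRM_IC50 and 0.202 ± 0.0774 FPKM in UNT (SD, n = 3 each). FOXD1, a forkhead factor of kidney stroma, was at 6.76 ± 1.54 FPKM at SRM_IC50 and 3.16 ± 0.376 FPKM in UNT (SD, n = 3 each). Its log2 fold change was 1.07 (adjusted p = 0.00306). Over the list of 20 relatives, 14 were tested, 2 were higher and 7 lower, with a median log2 fold change of -0.71. Of all genes, 7.95% were called higher and 9.6% lower.

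**Figure D4:**
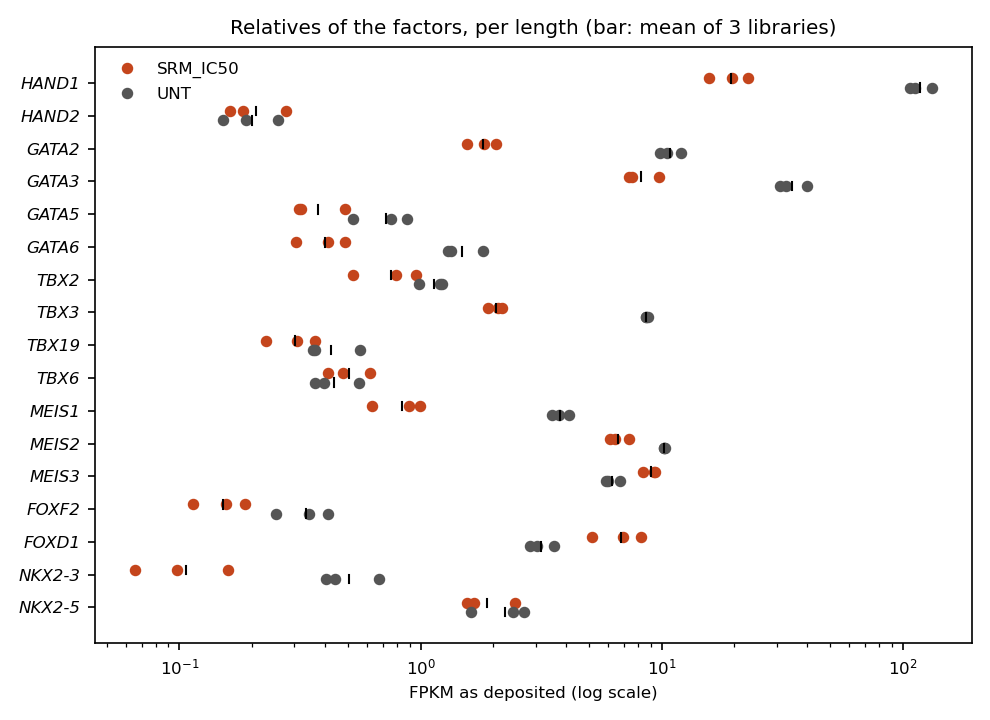
Deposited FPKM (log axis) of 17 genes at SRM_IC50 and in UNT: the 7 tested genes, and those relatives with a mean of at least 0.3 FPKM in UNT. A point is 1 library and a bar the mean of 3; HAND1, GATA2, GATA3, TBX3 and MEIS1 are far lower at SRM_IC50, MEIS3 and FOXD1 are higher, and HAND2 and NKX2-5 overlap.

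The genes around the 10 were followed in lists that were also chosen with earlier results known, so their counts are descriptions. Beside them, 9.6% of all genes were called lower and 7.95% higher at SRM_IC50 against UNT, with a median log2 fold change of 0.00. Of 21 tested lateral plate and cardiac progenitor factors outside the 10, 11 were lower and 1 was higher at SRM_IC50 than in UNT, with a median log2 fold change of -0.53. The summed level of the 25 genes listed did not fall. It was 302 to 316 CPM at SRM_IC50 and 298 to 310 CPM in UNT. HOPX, a homeodomain-only cofactor of heart progenitors and trophoblast, was at 0.547 ± 0.297 CPM at SRM_IC50, against 8.04 ± 2.48 CPM in UNT (SD, n = 3 each, log2 fold change -4.06, adjusted p = 6.66e-06). ISL1, of the second heart field and the amnion, was at 8.22 ± 1.26 CPM at SRM_IC50, against 20.4 ± 1.36 CPM in UNT (log2 fold change -1.29, adjusted p = 1.88e-06), and IRX4, of the ventricles, fell by 2.79 on the log2 scale (adjusted p = 1.49e-05). The gene that was higher was KDR, the VEGF receptor of early mesoderm and endothelium, at 46.7 ± 9.54 CPM at SRM_IC50, against 11.8 ± 3.72 CPM in UNT (log2 fold change 1.98, adjusted p = 5.45e-06). KDR thus went the opposite way from the other 11 genes of that list that passed.

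Of 14 tested contractile and hormone genes of cardiomyocytes, 7 were lower and none higher, with a median log2 fold change of -0.52. They included TNNT2 (-1.42, adjusted p = 0.000968) and MYH6 (-1.51, adjusted p = 0.00012), which are cardiac sarcomere genes, and TPM1 (-1.01, adjusted p = 5.51e-05), which many other cells use too. NPPA, the atrial hormone gene, was at 0 in all SRM_IC50 and UNT libraries. The DNA-binding and dimer partners of the 10 were divided: of 20 tested, 4 were higher and 4 lower, with a median of 0.08. TWIST1, which can pair with HAND proteins, was higher (0.49, adjusted p = 0.00431), and TCF4, a class I partner of the same proteins, was lower (-0.42, adjusted p = 0.0123).

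BMP signalling, the pathway upstream of most of the 10, was measured through 29 genes, all tested. At SRM_IC50 against UNT 3 were higher and 9 lower, with a median log2 fold change of -0.16. The ligand BMP4 was at 59.2 ± 6 CPM at SRM_IC50, against 93.2 ± 9.15 CPM in UNT (SD, n = 3 each, log2 fold change -0.66, adjusted p = 0.000107), and the mediator SMAD9 fell by 1.07 on the log2 scale (adjusted p = 7.59e-05). The secreted antagonist GREM1 was at 223 ± 1.69 CPM at SRM_IC50, against 116 ± 9.79 CPM in UNT (log2 fold change 0.95, adjusted p = 4.51e-07).

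**Figure D5:**
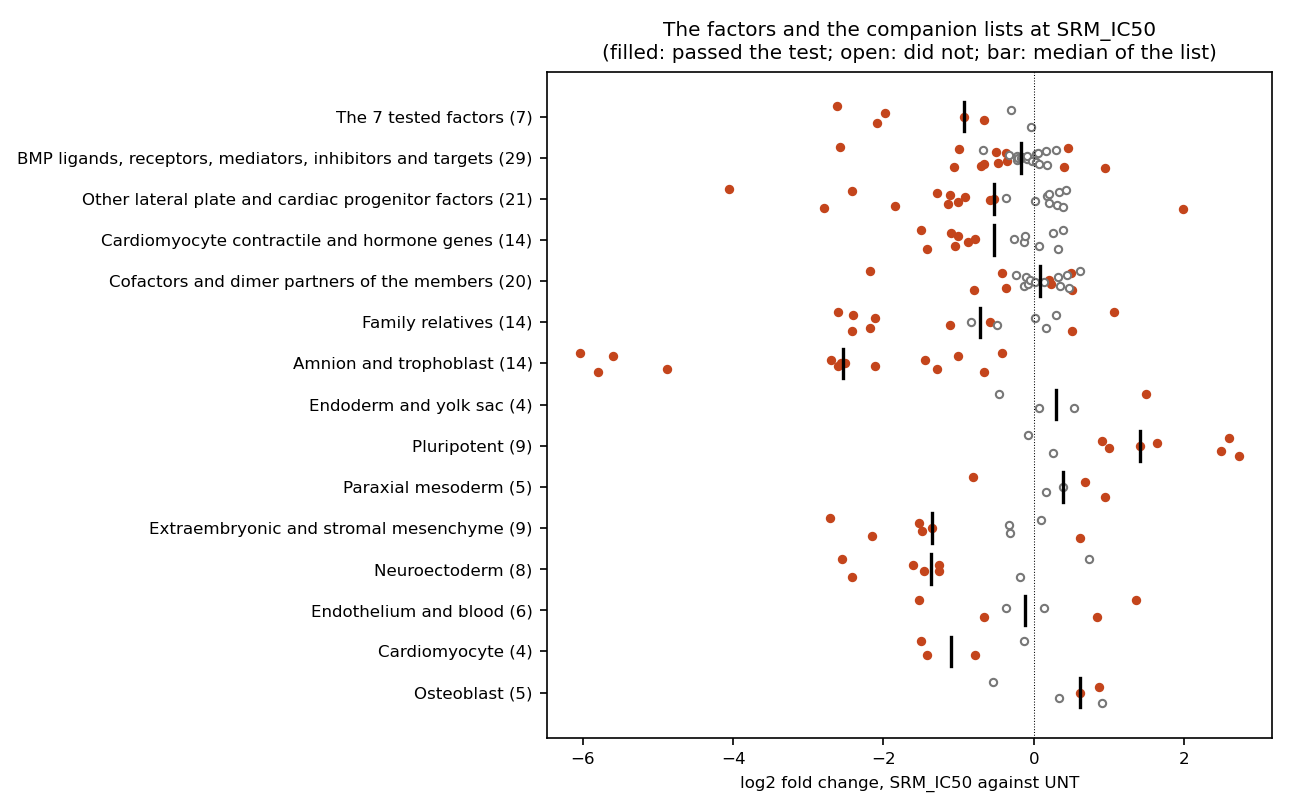
Log2 fold change at SRM_IC50 against UNT of the 7 tested genes and of each list, with the number of tested genes in brackets; a filled point passed the test, an open one did not, and a bar marks the median. The 7 genes have a median of -0.92, the amnion and trophoblast list -2.54 and the pluripotent list 1.42; some genes stand in more than 1 list.

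Markers of other cell types moved at the same dose, where 9.6% of all genes were called lower and 7.95% higher. All 14 tested amnion and trophoblast markers were lower at SRM_IC50 than in UNT, with a median log2 fold change of -2.54. The summed level of the 15 markers listed was 407 to 442 CPM at SRM_IC50 and 1520 to 1794 CPM in UNT, and none was at 0 in every library of either group. Among them GABRP, an amnion marker, fell by 2.57, and CYP19A1 and CGA, which serve hormone production in trophoblast, fell by 4.88 and 5.79 on the log2 scale. That list shares GATA2, GATA3, ISL1 and HEY1 with the lists above. Of 9 pluripotency genes 7 were higher and none lower, at a summed 2364 to 2880 CPM at SRM_IC50 and 1556 to 1696 CPM in UNT.

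Of 9 stromal genes 5 were lower and 1 higher, with log2 fold changes of -2.71 for LUM and -2.15 for DCN. Their summed level overlapped, at 1978 to 2112 CPM at SRM_IC50 and 2077 to 2348 CPM in UNT. Of 8 neuroectoderm markers 6 were lower and none higher, at a summed 248 to 261 CPM at SRM_IC50 and 416 to 453 CPM in UNT. The endoderm list had 4 tested genes, with 1 higher, at a summed 21.1 to 24.3 CPM at SRM_IC50 and 17.2 to 21.2 CPM in UNT. Of 5 tested paraxial mesoderm genes 2 were higher and 1 lower, of 6 endothelial and blood genes 2 were higher and 2 lower, and of 5 osteoblast genes 2 were higher and none lower. Of 4 tested genes in a shorter list of cardiomyocyte markers 3 were lower. All 6 genes of that list also stand in the contractile and hormone list above, so it adds no further genes. The part of these markers in the differences of HAND1, TBX3, GATA6, GATA5 and MEIS2 was not tested.

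The genes most like a given one were taken from Pearson's r of log2 CPM over the 15 libraries, which differ in depth and of which 3, those of SRM_IC50, lie apart for most of these genes. For HAND1 they were TIMP3 and NDRG1 (r = 0.996 each) and WNT11 (0.995), and over the 12 libraries without SRM_IC50 the values were 0.91, 0.91 and 0.92. For TBX3 they were IL1R1, STS and EPAS1 (0.995 each, and 0.83, 0.83 and 0.84 without SRM_IC50). For GATA6 they were GRAMD2A (0.984), SOX7 and DCN (0.980 each), with 0.75, 0.67 and 0.65 without SRM_IC50, and for MEIS2 FLRT3 (0.986), EFEMP1 (0.977) and ARHGAP24 (0.962). For HAND2 the values over the 15 libraries were lower, led by CARD19 (0.889), SMIM27 (0.868) and PLAC9 (0.834). Over the 9 libraries that are not FPM, the genes nearest to HAND1 were TIMP3, SLC7A7 and GATA2, and those nearest to GATA6 were HOPX, SOX7 and GRAMD2A. Those nearest to TBX3 were IL1R1, ADAMTS18 and STS, and those nearest to MEIS2 were EFEMP1, ZNF433 and SELENOP. Their r ran from 0.991 to 0.998. Nearest to HAND2 were PSME1 (0.988), ECI1 (0.984) and MRPL20-AS1 (0.976), so its values were close to the others in this set. These are the highest of many genes, and HAND2 had only 8 to 59 counts per library.

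Genes on the other strand bear on which of the 10 could share reads. By GENCODE 29 on GRCh38, HAND1, TBX3, TBX20, GATA4 and NKX2-5 have no gene on the opposite strand within 5 kb. HAND1 spans chr5:154474972-154478264 and TBX3 chr12:114670254-114684164. The part of shared reads in any of the falls was not tested. Exons of HAND2 overlap HAND2-AS1, those of GATA6 overlap GATA6-AS1 and AC091588.3, and those of MEIS2 overlap AC078909.1.

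AC078909.1 was at 2.37 ± 0.272 CPM at FPM_IC25 and 3.24 ± 0.364 CPM at FPM_IC50, against 0.639 ± 0.376 CPM in UNT (SD, n = 3 each), with log2 fold changes of 1.90 (adjusted p = 0.000267) and 2.36 (adjusted p = 2.94e-05), while MEIS2 itself did not pass at either FPM dose. These FPM differences lie between kinds of library and cannot be told apart from the higher share of antisense-gene counts in the FPM libraries. At SRM_IC50 AC078909.1 was at 0.371 ± 0.0306 CPM and did not pass against UNT (adjusted p = 0.287). GATA6-AS1 had 13 counts in all at SRM_IC50 and 20 in UNT, against 90 and 321 for GATA6, and did not pass against UNT (log2 fold change -0.76, adjusted p = 0.416). It was called lower at SRM_IC50 than at FPM_IC50 (log2 fold change -1.60, adjusted p = 0.0222), a comparison between kinds of library. AC091588.1 and RNU6-702P, within GATA6 on the opposite strand, had 0 counts at SRM_IC50 and in UNT. HAND2-AS1 had 9 counts in all at SRM_IC50 and 11 in UNT, too few to be tested. FOXF1 has FENDRR on the opposite strand 1428 bases away, with 2 counts in all at SRM_IC50 and 2 in UNT. AC009108.3 lies 4965 bases from FOXF1 on that strand, with 5 counts in all at SRM_IC50 and 4 in UNT. GATA5 has AL499627.2 at 1900 bases, with 1 count in all at SRM_IC50 and 0 in UNT.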

How the data were processed

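Read counts and FPKM per gene were deposited for 15 libraries of polyadenylated RNA from a directional kit. Per the submitters' processing notes, the authors used FastQC 0.11.7, HISAT2 2.2.1, SAMtools 1.10, featureCounts of Subread 2.0.15, DESeq2 and GRCh38, with the annotation release and strand setting not given in the sources used here. The deposited count values are whole numbers, not normalized, per the file headers and the values. The deposited FPKM values are scaled by gene length and by depth, as made by the authors; 1 column, a gene length, belongs to no sample.

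The members and lists were chosen with earlier results of these data known. Genes were matched by Ensembl identifier. Counts were tested in edgeR 4.0.16 (R 4.3.3): TMM, filterByExpr, robust quasi-likelihood fits of 5 group means to all 15 libraries, Benjamini-Hochberg adjustment over 19012 genes. SE is the log2 fold change over the root of F. The fit was tested on simulated data. Named genes were all 10 members, opposite-strand genes within 5 kb, and up to 4 called genes per list with the smallest adjusted p. The 3 genes most like 5 of the members by r were named too. NPPA, FOXD1, FOXF2, TBX2 and TBX5 stood outside this rule and were named after their values were seen. Alternatives used DESeq2 1.42.0, its size factors, no filter, the replicate number, limma-trend (limma 3.58.1) on log2(FPKM + 1) or, in turn, log2(FPKM + 0.1), where FPKM reached 0.1 in 3 libraries or unfiltered, removal of a GC trend, other sets of libraries and each library left out. The replicate number entered as a block across all 15 libraries. All 3 same-numbered correlations of deviations passed 0.1 only between the FPM doses (0.182, 0.208 and 0.261). Within groups log2 CPM correlated at 0.982 to 0.994, and chi-square per gene was at least 5.5, so no library was counted as a repeat. Floors cover counting error only, since PCR copies without molecular identifiers are not separate molecules.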

Additional observations from a re-analysis of the deposited data

Results flagged for a closer look

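The difference between SRM_IC50 and SRM_IC25 was larger than that between FPM_IC50 and FPM_IC25 for 5 genes, by the interaction in edgeR's quasi-likelihood test. It was -2.66 for HAND1, -2.28 for TBX3, -1.88 for GATA6, -1.35 for GATA5 and -0.57 for MEIS2 on the log2 scale, all with adjusted p under 0.05. Each particle's doses were compared within its own kind of library. The mass doses of the particles differed, and this was not separated from the kind of particle.

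AC091588.3, a gene on the strand opposite GATA6 whose exons overlap those of GATA6, had 58 counts in the 6 FPM libraries, 5 to 28 in each, and 0 counts in the other 9, so a signal stood in the FPM libraries above the level in UNT. GATA6 itself did not pass the test at either FPM dose. The higher share of counts in antisense genes in the FPM libraries moved with it, and its part was not tested.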

How the results depend on the processing

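Across all alternatives that kept both groups, HAND1, TBX3, GATA6 and MEIS2 stayed lower and past the threshold at SRM_IC50 against UNT, SRM_IC25 and FPM_IC50 and in the interaction. The sizes moved most under limma-trend on log2(FPKM + 1): GATA6 was -0.82 against UNT, -0.82 against SRM_IC25, -0.91 against FPM_IC50 and -0.76 in the interaction, and GATA5 was -0.32, -0.48, -0.45 and -0.55 in the same order. GATA5 kept its direction and lost its call against UNT under 4 settings: the 3 given beside it and limma-trend on log2(FPKM + 1) with no filter (-0.32, adjusted p = 0.0718). No tested gene reversed a call. The count of the 10 genes called ranged over the fits without 1 library from 4 to 5 at SRM_IC50 against UNT, from 5 to 6 at SRM_IC50 against SRM_IC25, and stayed at 0 or 5 elsewhere.

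The count at FPM_IC25 against UNT was 1 by DESeq2 (MEIS2). Whether replicate numbers pair the libraries was unclear. Same-numbered libraries of different groups had correlations of their deviations from group means from -0.14 to 0.438 (median 0.16, against -0.078 for different numbers), with 16 of 30 over 0.1. All 3 were over 0.1 in 1 of 10 pairs of groups, the FPM doses, and 9 of 15 libraries had their highest mean correlation with their own number. With the replicate number as a replicate block, the count at FPM_IC25 against UNT was 1 (MEIS2, adjusted p = 0.0377), and the genes called were 4083 at FPM_IC25 against UNT, 2715 at SRM_IC25 against UNT and 34 between the FPM doses.

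The background at SRM_IC25 against UNT, 833 genes, changed with most settings: 1980 by DESeq2, 485 and 424 by limma-trend on log2(FPKM + 1) with and without the filter, 0 after removal of the GC trend, 0 without the FPM libraries, 0 with only the groups compared, and 0 to 1153 with 1 library left out. Between the FPM doses the count of 2 became 37 by DESeq2, 116 with no filter, 5 and 18 by limma-trend with 1 and 0.1 added to FPKM, 29 with 1 added and no filter, 4 after the GC trend was removed, 0 with only the groups compared, and 0 to 6 with 1 library left out; 784 genes were under 0.05 before adjustment. The cause was not tested. HAND2 and the 3 genes below the filter are limited by depth.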
